A study of Mus musculus with 12 samples.

Results

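The genes described here encode the pore-forming and auxiliary subunits of voltage-gated calcium and sodium channels and of the HCN channels of the mouse hippocampus. They were chosen by gene symbol alone, as all symbols that begin with Cacna, Cacnb, Cacng, Scn or Hcn and a number, and 44 of the 32546 genes in the count table met this rule. The list holds 7 alpha1 genes of the high-voltage-activated calcium channels, 3 alpha1 genes of the T type, 4 alpha2delta genes, 4 calcium channel beta genes, 8 gamma genes, 10 sodium channel alpha genes, 4 sodium channel beta genes and 4 HCN genes. Of these, 38 had at least 10 UMIs in all 48 replicates together, and 6 did not, among them Scn10a with 4 UMIs, Cacng1 and Scn11a with 2 each, and Cacna1s and Scn4a with 1 each.

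RNA was measured with photo-isolation chemistry (PIC), in which mRNA is reverse-transcribed in a tissue section with light-caged primers and only cDNA in a chosen area is uncaged with UV light and amplified. All tissue came from male ICR mice aged 8 weeks, with no genetic change named, and CA1, CA3 and the dentate gyrus (DG) were irradiated in 4 histological conditions. Fresh-frozen sections were permeabilized either with 0.1 N HCl for 5 min (fresh-frozen HCl) or with TE buffer at 70 °C for 1 h (fresh-frozen TE), and frozen or paraffin-embedded sections of tissue fixed with 4% PFA (formalin-fixed frozen TE and formalin-fixed paraffin TE) were permeabilized with TE in the same way. In the study's protocol all sections, fresh-frozen ones included, were also post-fixed with 4% PFA on the slide before permeabilization. Fixation below therefore means fixation of the tissue before sectioning. Each region and condition had 4 replicates with their own barcodes, which were pooled in 1 library, so there were 48 replicates in 12 libraries. A difference between regions or conditions therefore cannot be told apart from a difference between libraries within a condition, and tests over replicates measure the spread within a library. The study calls the 4 replicates biological, the sources used here name no mouse for a replicate, and the series description writes CA2 where the sample names write CA3; the sample names were followed.

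Totals per replicate ranged from 127253 to 933756 UMIs in fresh-frozen HCl, 294445 to 1111804 in fresh-frozen TE, 52800 to 307145 in formalin-fixed frozen and 35932 to 223055 in formalin-fixed paraffin sections, and replicate 4 had the lowest total in 12 of 12 libraries. The channel genes together took 94557 UMIs, and 43, 40, 36 and 40 of the 44 genes were detected in these conditions, in the same order. The regions carried their labelled markers: 5 of 5 CA1 markers were called higher in CA1 than in DG and 6 of 6 DG markers were called higher in DG than in CA1, whereas 2 of 5 CA3 markers (Bok and Cdh24) were called higher in CA3 than in DG. Other cells moved with the regions too: the 6 oligodendrocyte markers were all called higher in CA1 and in CA3 than in DG, with a summed level of 5836 to 21472 CPM (UMIs per 1000000 UMIs of the replicate) in CA1, 2727 to 18127 in CA3 and 1789 to 16501 in DG, and 3 of 5 astrocyte markers (Aqp4, Gja1 and Slc1a3) were called lower in CA1 and CA3 than in DG. Of 8 interneuron markers, Pvalb, Sst and Vip were called higher in CA1 than in DG and Gad1 lower in CA3 than in DG, with summed levels of 406 to 1494 CPM in CA1, 447 to 1096 in CA3 and 651 to 1404 in DG. Of 4 CA2 markers, Pcp4 was called lower in CA1 and in CA3 than in DG and Rgs14 higher in CA1 than in DG. Of the choroid plexus markers, Ttr was called lower in CA1 than in both other regions and Kl higher in CA1 than in CA3, Olig1 of oligodendrocyte precursors was called higher in CA1 than in DG, and no microglial or endothelial marker was called. Between CA1 and CA3, Sst, Vip, the oligodendrocyte gene Mbp and 5 of 5 CA1 markers were called higher in CA1 and 3 of 5 CA3 markers (Bok, Cdh24 and Iyd) lower in CA1. Of the 6 DG markers, C1ql2, Dsp, Prox1 and Stxbp6 were also called lower in CA1 than in CA3 and Lct higher, with summed levels of 129.1 to 334 CPM in CA1, 94.7 to 576.2 in CA3 and 677.9 to 2097 in DG. The part of these cells in any result below was not tested, and in such bulk samples fewer cells of a type and less RNA per cell cannot be told apart.

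Voltage-gated sodium channels carry the rising phase of the action potential: an alpha subunit forms the pore, and beta subunits, which cross the membrane once, alter gating and take part in cell adhesion. In voltage-gated calcium channels the alpha1 subunit forms the pore and sets the current type, a cytosolic beta subunit brings it to the membrane and an extracellular alpha2delta subunit raises its surface level; most gamma genes expressed in brain encode TARPs, which are auxiliary subunits of AMPA receptors. HCN channels open on hyperpolarization and carry the h current, which in hippocampal pyramidal cells dampens and shortens dendritic potentials. Because UMIs were counted near the 3′ ends of transcripts, levels are compared below between regions and conditions and not between genes.

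Sequence windows around the transcription start (250 bases before it to 50 after it, RefSeq, GRCm38.p6) were at hand for 32 of the 44 genes, in 43 windows. Those of 4 genes are shown because these genes differed between regions in opposite directions: Hcn4 and Cacna2d2 were lower in CA1 than in DG, and Cacna1i and Cacna2d3 were higher. The windows lie at chr9:58822699-58822998 (plus strand) for Hcn4, chr9:107399630-107399929 (plus) for Cacna2d2, chr15:80286988-80287287 (plus) for Cacna1i and chr14:29721815-29722114 (minus) for Cacna2d3, at RefSeq starts, which can differ from those of other annotations. Each is printed 5′ to 3′ on the strand of its gene. Capitals mark letters that match, on either strand, the E box CANNTG, the GC box GGGCGG, the cAMP response element TGACGTCA or the TATA box TATAAA; neighbouring matches run together.
Hcn4: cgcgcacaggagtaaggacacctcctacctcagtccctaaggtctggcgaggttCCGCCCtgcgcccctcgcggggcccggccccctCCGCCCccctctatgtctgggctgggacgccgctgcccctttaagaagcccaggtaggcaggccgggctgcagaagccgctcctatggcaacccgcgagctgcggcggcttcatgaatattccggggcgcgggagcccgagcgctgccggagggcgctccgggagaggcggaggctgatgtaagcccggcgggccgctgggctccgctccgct
Cacna2d2: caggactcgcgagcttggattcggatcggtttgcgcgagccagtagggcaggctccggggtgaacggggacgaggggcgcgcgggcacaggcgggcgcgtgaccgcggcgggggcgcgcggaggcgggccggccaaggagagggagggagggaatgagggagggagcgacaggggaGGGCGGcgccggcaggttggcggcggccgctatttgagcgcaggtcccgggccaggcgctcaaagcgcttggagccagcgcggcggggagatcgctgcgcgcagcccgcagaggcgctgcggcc
Cacna1i: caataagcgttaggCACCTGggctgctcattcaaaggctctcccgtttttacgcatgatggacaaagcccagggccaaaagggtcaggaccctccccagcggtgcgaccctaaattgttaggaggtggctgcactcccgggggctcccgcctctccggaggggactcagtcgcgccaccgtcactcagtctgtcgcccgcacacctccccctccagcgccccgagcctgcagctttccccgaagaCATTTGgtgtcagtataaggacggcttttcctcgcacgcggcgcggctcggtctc
Cacna2d3: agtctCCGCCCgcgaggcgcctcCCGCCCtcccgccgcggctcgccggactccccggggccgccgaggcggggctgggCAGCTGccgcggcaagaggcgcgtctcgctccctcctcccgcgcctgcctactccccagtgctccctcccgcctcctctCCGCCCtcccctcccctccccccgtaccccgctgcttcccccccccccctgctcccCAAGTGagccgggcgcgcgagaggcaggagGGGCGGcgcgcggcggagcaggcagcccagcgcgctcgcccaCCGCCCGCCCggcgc

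The Hcn4 window held 2 GC boxes and no E box, that of Cacna2d2 held 1 GC box and no E box, that of Cacna1i held 2 E boxes and no GC box, and that of Cacna2d3 held 6 GC boxes and 2 E boxes. Their GC content was 71.7%, 75.7%, 62.7% and 81.3%, in the same order. An E box occurred in 67.4% of the 43 channel windows and in 72.3% of all 32851 windows, a GC box in 41.9% and 35.7%, TATAAA in 4.65% and 13.6%, and TGACGTCA in 0% and 1.79%. These letter matches describe the windows and show no binding.

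Region differences were first tested with the library as the unit, on the summed UMIs of the 12 libraries with the condition as a covariate; calls have an adjusted p below 0.05 (edgeR, Benjamini-Hochberg over all genes tested). Log2 fold changes have the first-named region over the second, and ± gives an approximate standard error. It is the absolute log2 fold change divided by the square root of the F statistic of the test. Of the 38 channel genes tested, 10 were called between CA1 and DG, of which 4 were higher in CA1 and 6 in DG; of all genes tested, 10.2% were called, 4.64% higher in CA1 and 5.52% higher in DG. Between CA3 and DG 6 were called, 4 higher in CA3 and 2 in DG, against 8.18% of all genes (3.88% and 4.3%). Between CA1 and CA3 8 were called, 3 higher in CA1 and 5 in CA3, against 4.67% of all genes (2.05% and 2.61%). The median log2 fold change of the 38 genes was 0.06, 0.12 and -0.13 in these comparisons, and that of all genes was 0.00, -0.01 and 0.02. The 3 comparisons share their libraries in pairs, so their calls are not independent.

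**Figure D1:**
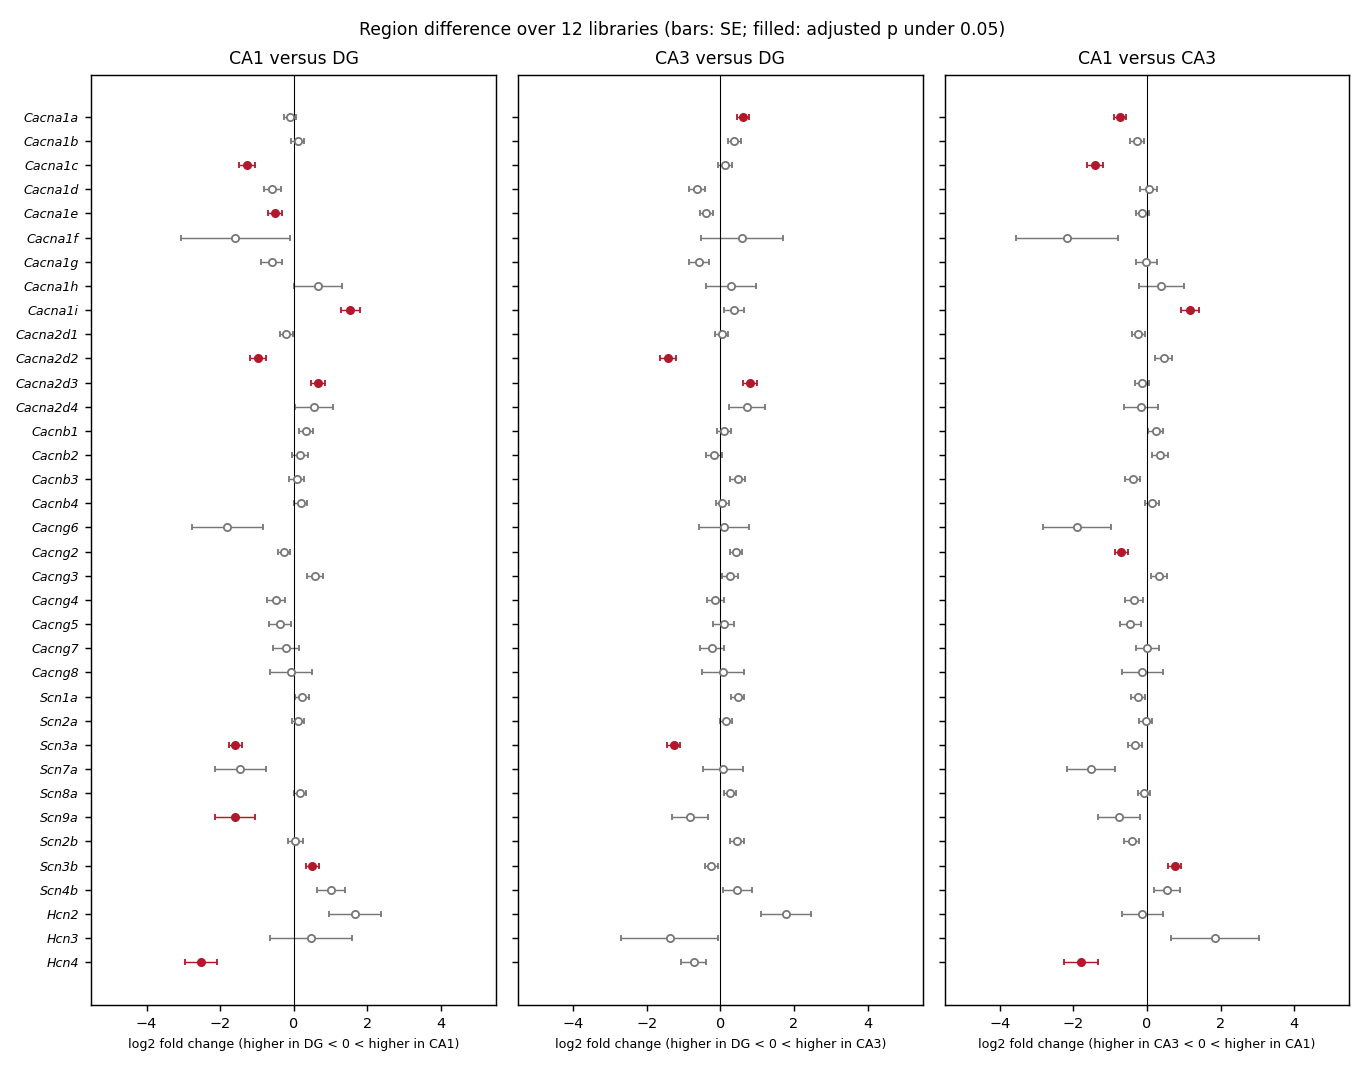
Log2 fold change between regions (x axis) of 36 channel genes tested (rows) over the 12 libraries, with bars for the standard error and filled points for calls at an adjusted p under 0.05. In the first panel, CA1 over DG, Cacna1i (1.54) lies farthest to the right among the filled points and Hcn4 (-2.52) farthest to the left; the 4 calcium channel beta genes lie between -0.39 and 0.46 with open points in all 3 panels.

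Within a condition, with the 4 replicates of each region as the unit, 10 of 34 channel genes tested were called between CA1 and DG in fresh-frozen HCl (17% of all genes), 10 of 34 in fresh-frozen TE (10.1%), 7 of 28 in formalin-fixed frozen (8.14%) and 2 of 28 in formalin-fixed paraffin sections (3.29%). Between CA3 and DG, the counts in this order were 8 of 36 (8.99% of all genes), 9 of 34 (7.91%), 2 of 29 (9.27%) and 3 of 28 (3.21%). Between CA1 and CA3 they were 7 of 35 (9.13%), 5 of 35 (4.4%), 3 of 24 (7.2%) and 1 of 25 (2.36%). Fewer channel genes were called in the fixed tissue, where the totals were also lower. The part of the totals in this was not tested. Replicates of the same number deviated together between regions to differing degrees, with correlations of 0.001 to 0.433. All were at least 0.18 in fresh-frozen TE and, for CA3 and DG, in fresh-frozen HCl. With the number as a block, the calls there were 16 of 34 for CA1 and DG (16.1% of all genes), 11 of 34 for CA3 and DG (13.5%) and 9 of 35 for CA1 and CA3 (8.4%) in fresh-frozen TE. They were 14 of 36 for CA3 and DG in fresh-frozen HCl (17.3%). No call was lost with the block in these 4 comparisons. Values and calls of single genes below leave the block out unless it is named. A gene not called in these 4 comparisons may therefore be called with the block.

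**Figure D2:**
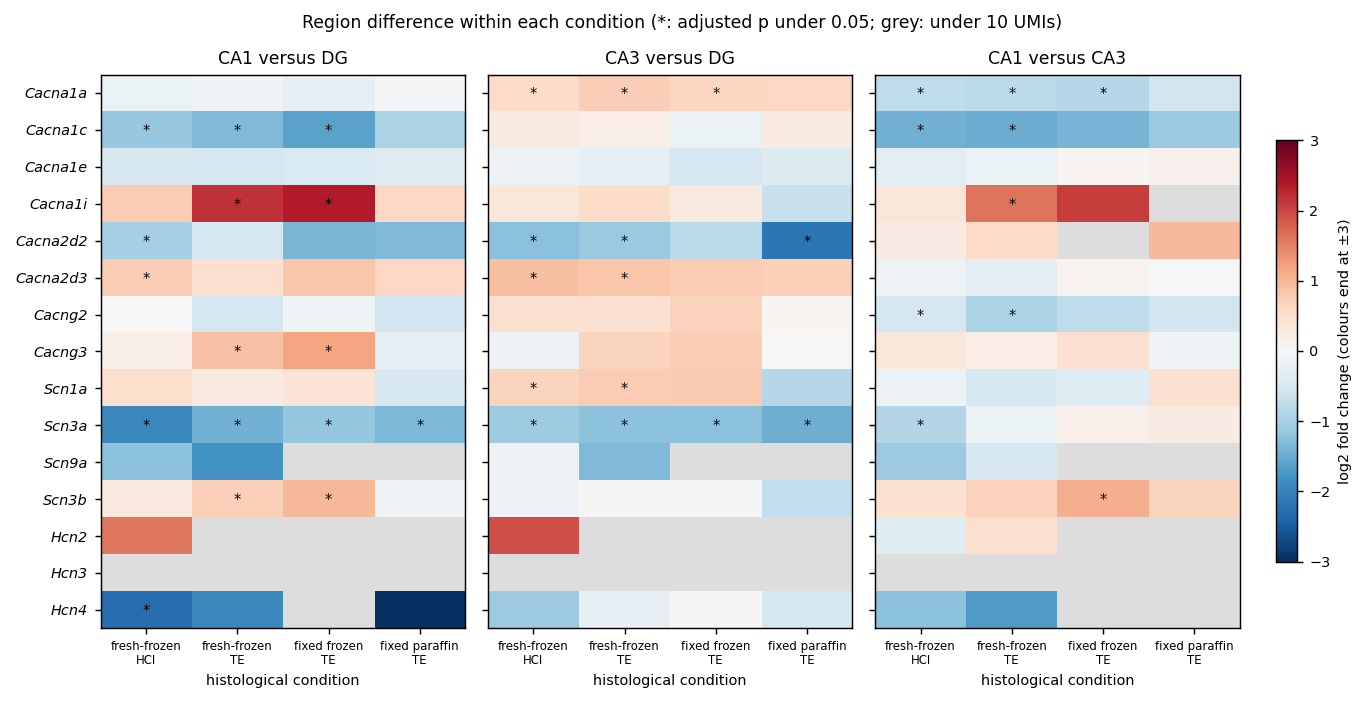
Log2 fold change between regions (colour) of 15 channel genes followed in every replicate (rows) in each histological condition (columns), with a star for an adjusted p under 0.05 and grey for fewer than 10 UMIs. Scn3a carries a star in 4 of 4 conditions against DG for both CA1 and CA3.

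Among the HCN genes, Hcn4 (ENSMUSG00000032338, chr9:58823412-58863175, plus strand) was lower in CA1 than in both other regions. Hcn4 encodes a slowly gating HCN subunit best known from the sinus node and thalamus, and it was sparse, so UMIs are given. Hcn4 in fresh-frozen HCl sections measured 7, 4, 2 and 1 UMIs in CA1, 19, 14, 8 and 7 in CA3, and 15, 14, 34 and 1 in DG. Hcn4 in fresh-frozen TE sections measured 0, 2, 2 and 0 UMIs in CA1, 6, 5, 5 and 1 in CA3, and 3, 5, 5 and 0 in DG. CA1 had 14 and 4 UMIs in all in these conditions, against 48 and 17 in CA3 and 64 and 13 in DG, and the replicates of the regions overlapped. Hcn4 in formalin-fixed frozen TE sections measured 0 UMIs in every replicate of CA1, 1, 3, 1 and 0 in CA3, and 2, 4, 0 and 3 in DG. Hcn4 in formalin-fixed paraffin TE sections measured 0 UMIs in every replicate of CA1, 2, 2, 1 and 1 in CA3, and 8, 1, 8 and 0 in DG. CA1 lay below CA3 without overlap in paraffin sections, and no UMI of Hcn4 was found in CA1 of the fixed tissue, where 3 counts would correspond to 7.12 CPM in frozen and 14.3 CPM in paraffin sections. Over the 12 libraries Hcn4 had a log2 fold change of -2.52 ± 0.43 (adjusted p = 3.50e-07) between CA1 and DG and -1.79 ± 0.46 (adjusted p = 0.00345) between CA1 and CA3, the latter lost without the fresh-frozen TE libraries (-1.87, adjusted p = 0.0556).

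Hcn2 and Hcn3 were near the limit of detection. Hcn2 in fresh-frozen HCl sections measured 3, 5, 7 and 0 UMIs in CA1, 4, 11, 9 and 3 in CA3, and 0, 0, 3 and 1 in DG. Hcn2 in fresh-frozen TE sections measured 1, 2, 4 and 0 UMIs in CA1, 0, 2, 4 and 0 in CA3, and 0 in every replicate of DG. DG had 4 and 0 UMIs of Hcn2 in all in these conditions, below CA1 and CA3, and the replicates overlapped. Hcn2 in formalin-fixed frozen TE sections measured 0, 2, 0 and 0 UMIs in CA1, 0, 2, 0 and 0 in CA3, and 0, 1, 1 and 0 in DG. Hcn2 in formalin-fixed paraffin TE sections measured 0 UMIs in every replicate of CA1, 0, 0, 0 and 1 in CA3, and 1, 0, 0 and 0 in DG. Its log2 fold change over the libraries was 1.66 ± 0.71 (adjusted p = 0.132) between CA1 and DG and 1.79 ± 0.68 (adjusted p = 0.0881) between CA3 and DG, which did not pass the test. Hcn3 had 13 UMIs in all, and 6 of them came from CA1 of fresh-frozen HCl sections. Hcn3 in fresh-frozen HCl sections measured 1, 2, 3 and 0 UMIs in CA1, 0, 1, 0 and 0 in CA3, and 0, 0, 1 and 0 in DG. Hcn3 in fresh-frozen TE sections measured 0, 1, 0 and 0 UMIs in CA1, 0, 1, 0 and 0 in CA3, and 0, 0, 2 and 0 in DG. In formalin-fixed frozen sections no Hcn3 UMI was found, and in paraffin sections 1 was found, in DG replicate 4. No region difference of Hcn3 was called, and its exons overlap those of Pklr on the other strand.

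**Figure D3:**
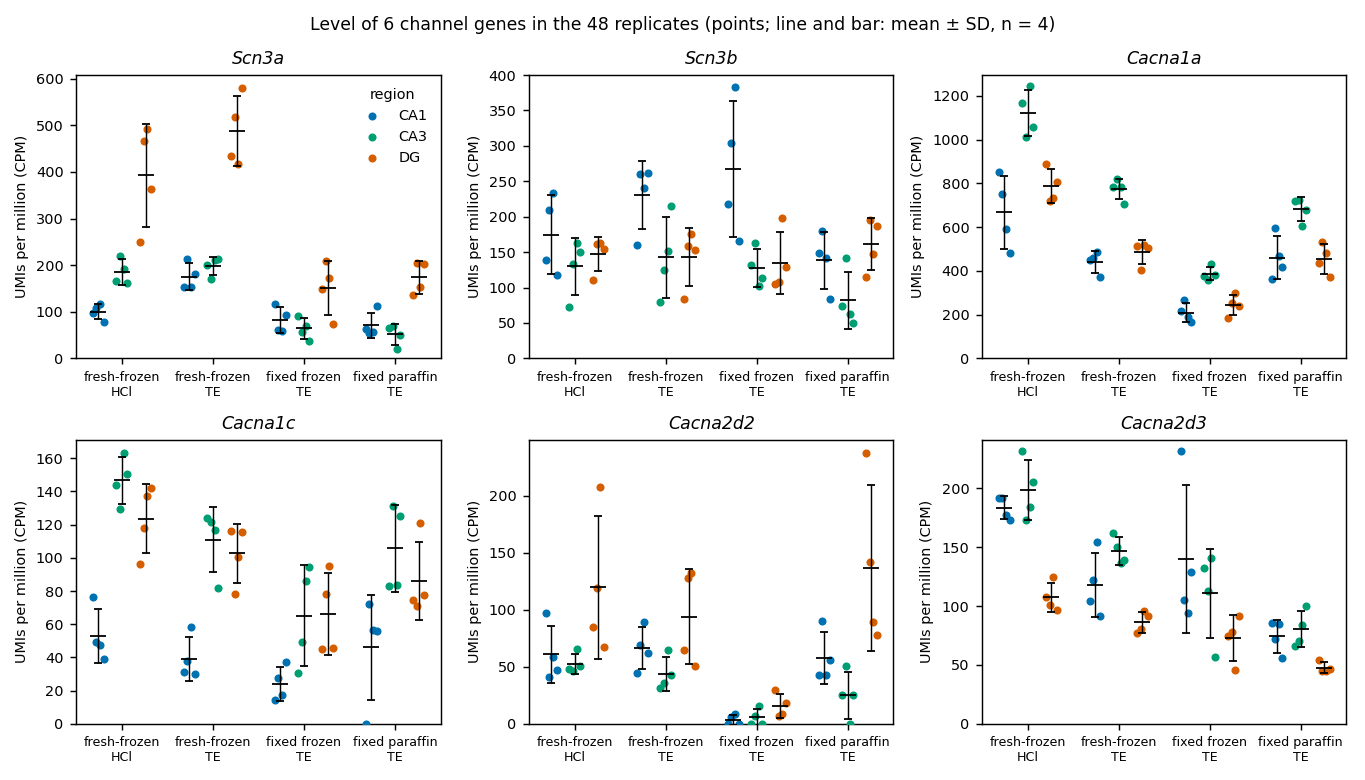
Level in CPM (y axis, linear) of 6 channel genes in each of the 48 replicates (points, coloured by region) by histological condition, with lines and bars for the mean and SD of 4 replicates. Scn3a stands highest in DG and Cacna1a highest in CA3 by its mean in every condition, and Cacna2d2 lies at 29.8 CPM or less in every formalin-fixed frozen replicate.

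Of the sodium channel alpha genes, Scn3a was higher in DG than in CA1 and CA3 in every condition. Scn3a encodes an alpha subunit best known for its high level in the embryonic brain, and it lies with Scn2a, Scn1a, Scn9a and Scn7a in a stretch of 1328 kb on chromosome 2. Scn3a (ENSMUSG00000057182, chr2:65457118-65567627, minus strand) took 4083 UMIs in all. Scn3a in fresh-frozen HCl sections measured 97.1, 108, 116 and 78.6 CPM in CA1, 165, 221, 193 and 161 in CA3, and 249.8, 465, 492 and 364 in DG. Scn3a in fresh-frozen TE sections measured 153, 214, 153 and 181 CPM in CA1, 200.4, 170.0, 210.1 and 213 in CA3, and 435, 518, 418 and 581 in DG. Every DG replicate of the fresh-frozen sections lay above every CA1 and CA3 replicate, and in fresh-frozen HCl CA1 also lay wholly below CA3. Scn3a in formalin-fixed frozen TE sections measured 116, 60.8, 59.7 and 92.3 CPM in CA1, 91.7, 56.5, 70.5 and 37.9 in CA3, and 149, 208, 173 and 73.4 in DG. Scn3a in formalin-fixed paraffin TE sections measured 64.0, 54.0, 56.5 and 111 CPM in CA1, 66.2, 70.5, 20.9 and 50.1 in CA3, and 136, 205, 152 and 202 in DG. DG again lay above both regions without overlap in paraffin sections, while in formalin-fixed frozen sections the lowest DG replicate fell within the range of CA1 and CA3.

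The log2 fold change of Scn3a over the libraries was -1.59 ± 0.19 (adjusted p = 6.71e-15) between CA1 and DG, -1.27 ± 0.18 (adjusted p = 3.11e-10) between CA3 and DG and -0.32 ± 0.19 (adjusted p = 0.547) between CA1 and CA3. Within conditions, the value for CA1 and DG was -1.94 ± 0.20 (adjusted p = 5.36e-10) in fresh-frozen HCl, -1.45 ± 0.16 (adjusted p = 2.58e-08) in fresh-frozen TE, -1.16 ± 0.31 (adjusted p = 0.00564) in formalin-fixed frozen and -1.34 ± 0.42 (adjusted p = 0.0454) in paraffin sections. For CA3 and DG it was -1.08 ± 0.18 (adjusted p = 0.000181), -1.24 ± 0.16 (adjusted p = 2.55e-06), -1.26 ± 0.32 (adjusted p = 0.00216) and -1.47 ± 0.41 (adjusted p = 0.0224), in the same order. Scn3a was called in 9 of the 12 fits within conditions, more than any other channel gene. DESeq2 did not make its CA1 and DG calls in the fixed tissue nor its CA3 and DG call in paraffin sections. Its paraffin call between CA1 and DG was lost in 8 of 8 omissions of a single replicate.

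Scn9a, an alpha gene best known from sensory neurons, was sparse, with 91 UMIs in all. Scn9a in fresh-frozen HCl sections measured 2, 2, 2 and 1 UMIs in CA1, 6, 8, 5 and 3 in CA3, and 3, 5, 5 and 2 in DG. Scn9a in fresh-frozen TE sections measured 2, 0, 5 and 0 UMIs in CA1, 1, 4, 2 and 5 in CA3, and 5, 4, 10 and 1 in DG. CA1 had the fewest UMIs in both, and single replicates overlapped. In formalin-fixed frozen sections 1 UMI was found, in CA3, and in paraffin sections 6 were found in DG and 1 in CA1. Over the libraries Scn9a differed between CA1 and DG (log2 -1.60 ± 0.55, adjusted p = 0.0395), a call that was kept in 2 of 4 omissions of a condition (-1.38, adjusted p = 0.502 without fresh-frozen TE) and that DESeq2 did not make. Exons of Scn9a overlap Gm13629 on the other strand.

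Scn1a, whose product is prominent in inhibitory neurons, was called higher in CA3 than in DG in the fresh-frozen sections and in no comparison over the libraries. Scn1a in fresh-frozen HCl sections measured 182, 225, 175 and 165 CPM in CA1, 158, 254, 241 and 164 in CA3, and 99.3, 115, 171 and 134 in DG. Scn1a in fresh-frozen TE sections measured 111, 172, 211 and 86.4 CPM in CA1, 139, 229, 268 and 179.8 in CA3, and 104, 155, 133 and 102 in DG. The CA3 replicates ranged higher than those of DG, with overlap in both conditions. Scn1a in formalin-fixed frozen TE sections measured 29.0, 127, 93.8 and 55.4 CPM in CA1, 61.1, 113, 117 and 189 in CA3, and 59.6, 71.6, 78.4 and 36.7 in DG. Scn1a in formalin-fixed paraffin TE sections measured 85.4, 108, 42.4 and 27.8 CPM in CA1, 33.1, 90.7, 20.9 and 25.1 in CA3, and 88.1, 116, 85.2 and 77.8 in DG. In paraffin sections 3 of 4 CA3 replicates lay below every DG replicate. The log2 fold change between CA3 and DG was 0.66 ± 0.19 (adjusted p = 0.0284) in fresh-frozen HCl, where 3 of 8 omissions of a replicate kept the call. It was 0.76 ± 0.19 (adjusted p = 0.00829) in fresh-frozen TE, where 7 of 8 did, and the paraffin value was -0.86 ± 0.48 (adjusted p = 0.415).

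Scn8a and Scn2a, the alpha genes of axon initial segments, took the most UMIs of the family, 13420 and 11163, and were not called over the libraries in any comparison. Scn8a was called in fresh-frozen TE, higher in CA1 than in DG (log2 0.60 ± 0.14, adjusted p = 0.00305) and higher in CA3 than in DG (log2 0.63 ± 0.14, adjusted p = 0.00467). Scn2a was called in fresh-frozen HCl alone, higher in CA3 than in DG (log2 0.48 ± 0.14, adjusted p = 0.0361), and 2 of 8 omissions of a replicate kept that call. Scn7a, a sodium-sensing relative, was called lower in CA1 than in DG in fresh-frozen TE (log2 -2.54 ± 0.78, adjusted p = 0.0284) from 4 UMIs against 20.

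Of the sodium channel beta genes, Scn3b was higher in CA1 than in CA3 and in DG over the libraries. Scn3b encodes a beta subunit that associates with alpha subunits without a disulfide bond. Scn3b in fresh-frozen HCl sections measured 138, 209.8, 234 and 118 CPM in CA1, 71.8, 134, 163 and 150.4 in CA3, and 111, 161, 163 and 155 in DG. Scn3b in fresh-frozen TE sections measured 159.6, 261, 240.4 and 262 CPM in CA1, 79.6, 124, 151 and 215 in CA3, and 83.4, 159, 176 and 153 in DG. The highest replicate was a CA1 replicate in both, and the regions overlapped in both conditions. Scn3b in formalin-fixed frozen TE sections measured 217, 304, 384 and 166 CPM in CA1, 132, 162, 102 and 114 in CA3, and 104, 107, 198 and 128 in DG. Scn3b in formalin-fixed paraffin TE sections measured 149, 180.0, 141 and 83.5 CPM in CA1, 74.5, 141, 62.8 and 50.1 in CA3, and 115, 196, 148 and 187 in DG. CA1 and CA3 were separated in formalin-fixed frozen sections and overlapped in paraffin sections. Over the libraries CA1 exceeded CA3 (log2 0.75 ± 0.18, adjusted p = 0.00104) and DG (log2 0.50 ± 0.18, adjusted p = 0.0410), and the second call was kept in 1 of 4 omissions of a condition (0.33, adjusted p = 0.325 without formalin-fixed frozen). Scn4b, a disulfide-linked beta subunit, was called in fresh-frozen HCl, higher in CA1 than in DG (log2 2.0 ± 0.49, adjusted p = 0.00282) and than in CA3 (log2 1.41 ± 0.41, adjusted p = 0.0263), and Scn2b, the other disulfide-linked subunit, was called in no region comparison.

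Of the high-voltage-activated calcium channel alpha1 genes, Cacna1a was highest in CA3 and Cacna1c was lowest in CA1. Cacna1a (ENSMUSG00000034656, chr8:84388440-84640246, plus strand) encodes the pore of the P/Q type, which triggers transmitter release at many synapses, and took 12716 UMIs. Cacna1a in fresh-frozen HCl sections measured 852, 751, 589 and 479 CPM in CA1, 1165, 1011, 1243 and 1059 in CA3, and 888, 718, 731 and 808 in DG. Cacna1a in fresh-frozen TE sections measured 448, 461, 486 and 369.7 CPM in CA1, 783, 821, 785 and 707 in CA3, and 514, 404, 518 and 506 in DG. Cacna1a in formalin-fixed frozen TE sections measured 217, 265, 188 and 166 CPM in CA1, 377, 360.0, 431 and 379 in CA3, and 186, 254, 297 and 239 in DG. Every CA3 replicate exceeded every CA1 and DG replicate in these conditions. Cacna1a in formalin-fixed paraffin TE sections measured 363, 594, 466 and 418 CPM in CA1, 719.8, 725, 607 and 677 in CA3, and 434, 534, 479.7 and 374 in DG. The same separation held in paraffin sections, where neither difference passed the test (adjusted p = 0.177 against DG and 0.466 against CA1). Over the libraries Cacna1a was higher in CA3 than in DG (log2 0.62 ± 0.16, adjusted p = 0.00403), and this call was lost without fresh-frozen TE (0.57, adjusted p = 0.0942). It was lower in CA1 than in CA3 (log2 -0.73 ± 0.17, adjusted p = 0.000595); between CA1 and DG it was -0.11 ± 0.17 (adjusted p = 0.782). It was called in 3 of 4 conditions in both comparisons with CA3, with log2 fold changes of CA3 over DG from 0.54 to 0.73 and of CA1 over CA3 from -0.86 to -0.55 over the 4 conditions. Exons of Cacna1a overlap Gm16183 on the other strand.

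Cacna1c (ENSMUSG00000051331, chr6:118587240-119196418, minus strand) encodes the pore of the main L type channel of neurons, which couples depolarization to gene expression. Cacna1c in fresh-frozen HCl sections measured 76.6, 49.2, 47.2 and 39.3 CPM in CA1, 144, 129.6, 163 and 150.4 in CA3, and 96.5, 118, 137 and 142 in DG. Cacna1c in fresh-frozen TE sections measured 31.0, 37.7, 58.1 and 29.7 CPM in CA1, 124, 121, 117 and 82.1 in CA3, and 116, 78.4, 101 and 116 in DG. CA1 lay wholly below CA3 and DG in the fresh-frozen sections, and CA3 and DG overlapped. Cacna1c in formalin-fixed frozen TE sections measured 14.5, 27.6, 17.1 and 36.9 CPM in CA1, 30.6, 49.4, 86.1 and 94.7 in CA3, and 44.7, 78.1, 94.9 and 45.9 in DG. Cacna1c in formalin-fixed paraffin TE sections measured 0, 71.99, 56.5 and 55.7 CPM in CA1, 82.7, 131, 83.7 and 125 in CA3, and 74.6, 71.1, 121 and 77.8 in DG. CA1 stayed below DG without overlap in formalin-fixed frozen sections and below CA3 in paraffin sections, from 0 to 5 UMIs per CA1 replicate. Over the libraries the log2 fold change was -1.28 ± 0.21 (adjusted p = 7.55e-08) between CA1 and DG and -1.41 ± 0.21 (adjusted p = 2.57e-09) between CA1 and CA3, and both calls held without any 1 condition. Between CA3 and DG it was 0.13 ± 0.19 (adjusted p = 0.816).

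Cacna1e encodes the pore of the R type. Cacna1e in fresh-frozen HCl sections measured 125, 157, 171 and 102 CPM in CA1, 142, 176, 225 and 166 in CA3, and 190.2, 217, 215 and 184 in DG. Cacna1e in fresh-frozen TE sections measured 72.4, 159.7, 128 and 72.9 CPM in CA1, 115, 135, 148 and 97.7 in CA3, and 136, 179, 176 and 136 in DG. CA1 lay below DG without overlap in fresh-frozen HCl. Cacna1e in formalin-fixed frozen TE sections measured 72.4, 116, 145 and 148 CPM in CA1, 71.3, 98.8, 141 and 152 in CA3, and 134, 218, 124 and 147 in DG. Cacna1e in formalin-fixed paraffin TE sections measured 64.0, 89.99, 155 and 278 CPM in CA1, 157, 80.6, 167 and 100.2 in CA3, and 189.8, 107, 251 and 109 in DG. The regions overlapped in the fixed tissue. The difference between CA1 and DG over the libraries, -0.51 ± 0.18 (adjusted p = 0.0413), was called in 1 of 4 omissions of a condition and in no single condition; with the block it was called in fresh-frozen TE (log2 -0.50 ± 0.15, adjusted p = 0.00533). Cacna1b, the pore of the N type, was called in fresh-frozen TE, higher in CA3 than in DG (log2 0.80 ± 0.19, adjusted p = 0.00745). Cacna1d, the second neuronal L type gene, was called in fresh-frozen HCl, lower in CA1 than in DG (log2 -0.87 ± 0.24, adjusted p = 0.00814). Cacna1f and Cacna1s, known from retina and skeletal muscle, had 12 UMIs and 1 UMI.

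The T type channels open near the resting potential and support burst firing; of their 3 genes, Cacna1i was higher in CA1. Cacna1i (ENSMUSG00000022416, chr15:80287238-80398279, plus strand), whose start window carried 2 E boxes, took 713 UMIs. Cacna1i in fresh-frozen HCl sections measured 32.8, 67.2, 56.4 and 47.2 CPM in CA1, 31.1, 52.5, 30.9 and 38.3 in CA3, and 31.2, 37.2, 17.8 and 41.9 in DG. Cacna1i in fresh-frozen TE sections measured 65.5, 115, 66.2 and 111 CPM in CA1, 20.6, 31.5, 31.1 and 27.4 in CA3, and 12.2, 11.9, 33.6 and 20.4 in DG. CA1 lay wholly above CA3 and DG in fresh-frozen TE, and the regions overlapped in fresh-frozen HCl. Cacna1i in formalin-fixed frozen TE sections measured 0, 66.3, 51.2 and 36.9 CPM in CA1, 0, 0, 23.5 and 18.9 in CA3, and 7.45, 3.26, 4.13 and 27.5 in DG. Cacna1i in formalin-fixed paraffin TE sections measured 0, 18.0, 42.4 and 55.7 CPM in CA1, 0, 10.1, 41.8 and 0 in CA3, and 20.3, 8.89, 26.9 and 0 in DG. In the fixed tissue the UMIs per replicate were 12 or fewer, and the regions overlapped. Over the libraries CA1 exceeded DG (log2 1.54 ± 0.26, adjusted p = 1.89e-07) and CA3 (log2 1.16 ± 0.25, adjusted p = 0.000150), the second of which was lost without fresh-frozen TE (0.94, adjusted p = 0.223). Within conditions CA1 over DG was 0.76 ± 0.31 (adjusted p = 0.0802) in fresh-frozen HCl, 2.16 ± 0.30 (adjusted p = 1.28e-06) in fresh-frozen TE, 2.39 ± 0.68 (adjusted p = 0.0101) in formalin-fixed frozen and 0.62 ± 0.86 (adjusted p = 0.835) in paraffin sections. Cacna1g was called in fresh-frozen HCl, lower in CA1 than in DG (log2 -1.0 ± 0.34, adjusted p = 0.0380), and Cacna1h, with 53 UMIs, in no region comparison.

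Of the alpha2delta genes, Cacna2d2 and Cacna2d3 differed between DG and the CA regions in opposite directions. The alpha2delta subunits are extracellular, and those of Cacna2d1 and Cacna2d2 bind gabapentin. Cacna2d2 in fresh-frozen HCl sections measured 97.1, 41.0, 58.7 and 47.2 CPM in CA1, 48.2, 46.1, 65.4 and 50.6 in CA3, and 85.2, 119, 208 and 67.0 in DG. Cacna2d2 in fresh-frozen TE sections measured 44.8, 69.3, 89.1 and 62.1 CPM in CA1, 31.0, 36.0, 64.3 and 43.0 in CA3, and 65.1, 128, 133 and 50.9 in DG. CA3 lay wholly below DG in fresh-frozen HCl and overlapped it at its upper end in fresh-frozen TE. Cacna2d2 in formalin-fixed frozen TE sections measured 0, 5.53, 8.53 and 0 CPM in CA1, 0, 7.06, 15.7 and 0 in CA3, and 29.8, 6.51, 8.25 and 18.4 in DG. Cacna2d2 in formalin-fixed paraffin TE sections measured 42.7, 89.99, 42.4 and 55.7 CPM in CA1, 24.8, 50.4, 0 and 25.1 in CA3, and 237, 142, 89.7 and 77.8 in DG. In formalin-fixed frozen sections Cacna2d2 had 0 to 4 UMIs per replicate, and in paraffin sections CA3 again lay below DG without overlap. Over the libraries CA3 was below DG (log2 -1.44 ± 0.22, adjusted p = 7.25e-09) and CA1 below DG (log2 -0.98 ± 0.22, adjusted p = 0.000200). CA3 and DG were called in 3 of 4 conditions, with -1.26 ± 0.25 (adjusted p = 0.00137) in fresh-frozen HCl, -1.11 ± 0.26 (adjusted p = 0.00534) in fresh-frozen TE and -2.18 ± 0.51 (adjusted p = 0.00409) in paraffin sections. Exons of Cacna2d2 overlap Gm17141 on the other strand.

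Cacna2d3, whose start window carried 6 GC boxes, was higher in CA1 and CA3 than in DG. Cacna2d3 in fresh-frozen HCl sections measured 192, 192, 177 and 173 CPM in CA1, 232, 174, 184 and 205 in CA3, and 108, 101, 124 and 96.3 in DG. Cacna2d3 in fresh-frozen TE sections measured 105, 122, 154 and 91.7 CPM in CA1, 162, 150.2, 136 and 139 in CA3, and 77.3, 80.1, 95.6 and 91.7 in DG. Every CA3 replicate lay above every DG replicate in the fresh-frozen sections, and CA1 did so in fresh-frozen HCl. Cacna2d3 in formalin-fixed frozen TE sections measured 232, 105, 93.8 and 129 CPM in CA1, 132, 113, 141 and 56.8 in CA3, and 74.5, 78.1, 45.4 and 91.7 in DG. Cacna2d3 in formalin-fixed paraffin TE sections measured 85.4, 71.99, 84.8 and 55.7 CPM in CA1, 66.2, 70.5, 83.7 and 100.2 in CA3, and 54.2, 44.5, 44.8 and 46.7 in DG. CA1 lay above DG without overlap in both sets of fixed sections, and CA3 in paraffin sections. Over the libraries CA3 exceeded DG (log2 0.79 ± 0.19, adjusted p = 0.000657) and CA1 exceeded DG (log2 0.66 ± 0.19, adjusted p = 0.00827), the second kept in 2 of 4 omissions of a condition (0.64, adjusted p = 0.0921 without fresh-frozen HCl). Cacna2d1, with 5754 UMIs the most of this family, was called in no region comparison, nor was Cacna2d4, with 101 UMIs. The Cacna2d1 log2 fold change over the libraries was -0.21 ± 0.17 (adjusted p = 0.553) between CA1 and DG and 0.03 ± 0.17 (adjusted p = 0.962) between CA3 and DG.

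The 4 calcium channel beta genes, with 1212 to 2940 UMIs each, were not called over the libraries in any comparison. Within conditions Cacnb4 was called in fresh-frozen HCl, higher in CA1 than in DG (log2 0.80 ± 0.20, adjusted p = 0.00335), and Cacnb1 in fresh-frozen TE, higher in CA1 than in DG (log2 0.71 ± 0.20, adjusted p = 0.0164), where 5 of 8 omissions of a replicate kept the call. Cacnb2 and Cacnb3 were called in no condition without the block. Their largest difference over the libraries was that of Cacnb3 between CA3 and DG, 0.46 ± 0.20 (adjusted p = 0.164).

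Of the gamma genes, Cacng2 was lower in CA1 than in CA3. Cacng2 encodes stargazin, the TARP that brings AMPA receptors to the surface of cerebellar granule cells. Cacng2 in fresh-frozen HCl sections measured 215, 192, 269 and 220.0 CPM in CA1, 315, 350.2, 269 and 299.5 in CA3, and 287, 244, 166 and 218 in DG. Cacng2 in fresh-frozen TE sections measured 109, 127, 86.4 and 91.7 CPM in CA1, 195, 192, 198 and 211 in CA3, and 136, 138, 143 and 197 in DG. CA1 lay wholly below CA3 and DG in fresh-frozen TE, and the highest CA1 replicate of fresh-frozen HCl met the lowest of CA3. Cacng2 in formalin-fixed frozen TE sections measured 188, 99.5, 51.2 and 239.8 CPM in CA1, 173, 184, 211 and 303 in CA3, and 164, 111, 116 and 147 in DG. Cacng2 in formalin-fixed paraffin TE sections measured 256, 306, 311 and 195 CPM in CA1, 546, 363, 251 and 401 in CA3, and 400.0, 427, 363 and 420.1 in DG. CA1 lay below DG without overlap in paraffin sections, and in formalin-fixed frozen sections CA3 lay above DG. Over the libraries CA1 was below CA3 (log2 -0.70 ± 0.17, adjusted p = 0.00255), lost without fresh-frozen TE (-0.62, adjusted p = 0.103). With the replicate block, CA3 exceeded DG in fresh-frozen HCl (log2 0.49 ± 0.12, adjusted p = 0.000509) and in fresh-frozen TE (log2 0.45 ± 0.14, adjusted p = 0.0101). Exons of Cacng2 overlap A730060N03Rik on the other strand.

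Cacng3, a TARP of the same type, was called higher in CA1 than in DG in 2 conditions and not over the libraries. Cacng3 in fresh-frozen HCl sections measured 62.9, 75.4, 52.9 and 70.7 CPM in CA1, 44.0, 50.3, 45.7 and 53.3 in CA3, and 79.5, 45.0, 53.3 and 46.1 in DG. Cacng3 in fresh-frozen TE sections measured 57.4, 45.2, 44.6 and 64.8 CPM in CA1, 63.4, 28.8, 44.0 and 44.9 in CA3, and 22.4, 23.9, 36.9 and 34.0 in DG. CA1 lay above DG without overlap in fresh-frozen TE and not in fresh-frozen HCl. Cacng3 in formalin-fixed frozen TE sections measured 174, 82.9, 119 and 73.8 CPM in CA1, 81.5, 98.8, 70.5 and 18.9 in CA3, and 44.7, 45.6, 45.4 and 45.9 in DG. Cacng3 in formalin-fixed paraffin TE sections measured 64.0, 0, 42.4 and 27.8 CPM in CA1, 33.1, 20.2, 62.8 and 50.1 in CA3, and 33.9, 35.6, 58.3 and 0 in DG. The DG replicates of formalin-fixed frozen sections lay between 44.7 and 45.9 CPM, below every CA1 replicate. CA1 over DG was 0.87 ± 0.26 (adjusted p = 0.0246) in fresh-frozen TE, 1.19 ± 0.37 (adjusted p = 0.0217) in formalin-fixed frozen and 0.21 ± 0.25 (adjusted p = 0.625) in fresh-frozen HCl sections, and 0.57 ± 0.22 (adjusted p = 0.0818) over the libraries. DESeq2 made neither of these 2 calls. Single omissions of a replicate kept the call in 4 of 8 cases in fresh-frozen TE and in 5 of 8 in formalin-fixed frozen sections.

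Cacng5, which is also a marker of CA2, was called lower in CA1 than in DG in formalin-fixed frozen sections, with 0 UMIs in CA1 and 16 in DG, which makes DG at least 2.84-fold higher against 3 counts over the group. Cacng4 was called lower in CA1 than in DG in paraffin sections, with 2 UMIs in CA1 and 50 in DG, a ratio of 9.55 with a 95% exact binomial interval from 2.51 to 81.1 for counting error only. Cacng7 and Cacng8, with 209 and 76 UMIs, were called in no region comparison, nor was Cacng6, with 32. Exons of Cacng8 overlap Gm23450 on the same strand.

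Shares of a gene in the UMIs of its family are not changed by scaling to the library total. They were compared between regions over the 4 conditions by a two-sided permutation test within conditions. It used 100000 permutations, with p-values adjusted over 84 comparisons, of which 32 passed. Replicates were permuted and not libraries, so these p-values measure the spread between the replicates of a library. Replicates with fewer than 10 UMIs of the family were left out. Shares of 1 family add up and so are not independent of each other, and a share says nothing of the level of 1 gene against another, since 3′ counting depends on the transcript. Among Scn1a, Scn2a, Scn3a and Scn8a, Scn3a held 20.1% in DG, 8.23% in CA1 (permutation p = 1e-05, adjusted p = 7.64e-05) and 7.90% in CA3 (permutation p = 1e-05, adjusted p = 7.64e-05); 1e-05 is the smallest p these permutations can give. The CA1 share was below that of DG in 4 of 4 conditions, with differences from -18.3 to -5.02 percentage points, and so was the CA3 share, with differences from -17.7 to -6.99. Scn8a held more in CA1 (46.4%, permutation p = 0.00362, adjusted p = 0.0113) and in CA3 (47.8%, permutation p = 0.00069, adjusted p = 0.00290) than in DG (40.1%), and Scn2a held more in CA1 (36.9%) than in DG (32.5%, permutation p = 0.00814, adjusted p = 0.0228) with the same sign in 3 of 4 conditions.

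Among the alpha2delta genes, Cacna2d3 held 30.3% in CA1 (permutation p = 1e-05, adjusted p = 7.64e-05) and 28.5% in CA3 (permutation p = 1e-05, adjusted p = 7.64e-05) against 17.6% in DG. Cacna2d2 held 11.1% (permutation p = 0.00473, adjusted p = 0.0142) and 6.498% (permutation p = 1e-05, adjusted p = 7.64e-05) against 19.4%. The 4 comparisons of these 2 genes with DG had the same sign in 4 of 4 conditions.

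Among Cacna1a, Cacna1b, Cacna1c, Cacna1d and Cacna1e, Cacna1a held 62.0% in CA3, 55.3% in CA1 (permutation p = 0.00095, adjusted p = 0.00347 against CA3) and 50.6% in DG (permutation p = 1e-05, adjusted p = 7.64e-05 against CA3). Cacna1c held 5.05% in CA1 against 9.07% in CA3 (permutation p = 2e-05, adjusted p = 0.000140) and 10.2% in DG (permutation p = 1e-05, adjusted p = 7.64e-05), with differences from -6.09 to -3.68 percentage points over the 4 conditions. CA3 held the lowest shares of Cacna1e (12.1%, against 17.4% in CA1 and 18.9% in DG) and of Cacna1d (2.79%, against 4.68% and 6.34%), each below both other regions in 4 of 4 conditions (permutation test, adjusted p from 7.64e-05 to 0.0226). Their levels over the libraries were not called between CA1 and CA3, with log2 fold changes of -0.13 ± 0.18 (adjusted p = 0.898) for Cacna1e and 0.04 ± 0.23 (adjusted p = 0.979) for Cacna1d. In the T type, which had enough UMIs in the fresh-frozen conditions only, Cacna1i held 76.0% in CA1, 61.4% in CA3 and 46.8% in DG, and Cacna1g 17.8%, 34.8% and 48.5%; all 6 comparisons passed, the weakest being Cacna1g between CA3 and DG (permutation p = 0.0111, adjusted p = 0.0301).

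Among Cacng2, Cacng3, Cacng4, Cacng5, Cacng7 and Cacng8, of which Cacng4 and Cacng5 were not tested, Cacng3 held 22.9% in CA1 against 13.4% in CA3 (permutation p = 0.0019, adjusted p = 0.00665) and 12.8% in DG (permutation p = 0.00026, adjusted p = 0.00137), and no share of the other 3 tested passed. None of the 12 comparisons of the calcium channel beta genes passed (permutation test over 84 comparisons), the nearest being Cacnb2 between CA1 and CA3 (20.2% and 13.99%, adjusted p = 0.0598), and 3 of the 12 had an unadjusted p under 0.05.

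**Figure D4:**
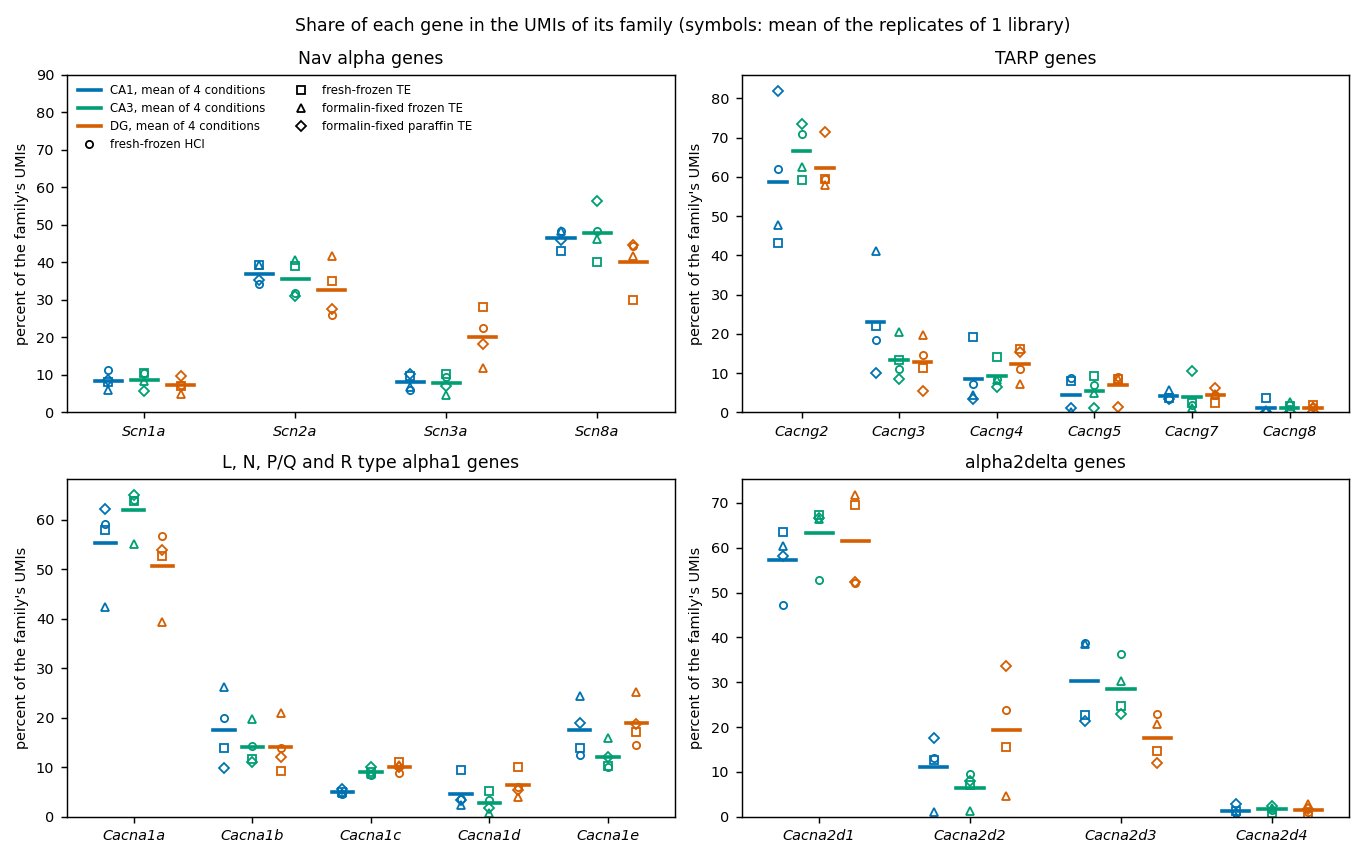
Share of each gene in the UMIs of its family (y axis, percent) by region (colour) and histological condition (symbol, mean of the replicates of 1 library), with lines for the mean of the 4 conditions. Scn3a stands higher in DG in each condition, Cacng3 stands highest in CA1 by the mean of the conditions, and the alpha2delta panel shows Cacna2d2 higher and Cacna2d3 lower in DG.

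Pairs of conditions that differ in permeabilization, in fixation of the tissue or in embedding were compared on 24 replicates, with the region as a covariate. In the study's protocol the HCl treatment also includes a detergent and heated PBS, and paraffin sections also pass through D-limonene and ethanol. A call therefore cannot be assigned to a single step. Here every region gives 1 library per condition, so a condition and its libraries cannot be told apart. Between fresh-frozen HCl and fresh-frozen TE 20 of 38 channel genes were called, 10 in each direction (30.6% of all genes, 16.2% higher with HCl and 14.3% higher with TE). Between formalin-fixed frozen and fresh-frozen sections, both with TE, 22 of 36 were called, 4 higher and 18 lower in fixed tissue (48.7% of all genes, 15.8% and 32.9%), and the median of all genes was itself shifted by -0.39. Between paraffin and formalin-fixed frozen sections 13 of 31 were called, 5 higher and 8 lower in paraffin (28% of all genes, 13.7% and 14.4%). For some genes the log2 fold change minus the median of all genes is also given.

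Hcn4 was higher with HCl than with TE (log2 1.67 ± 0.33, adjusted p = 6.17e-05), and so was Hcn2 (log2 1.62 ± 0.46, adjusted p = 0.00556), kept in 3 of 4 omissions of a replicate number (1.49, adjusted p = 0.0514 without replicate 2).

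Cacna2d2 was lower in formalin-fixed frozen sections than in fresh-frozen TE and in paraffin sections: its lowest, median and highest levels were 31.0, 63.2 and 133 CPM in fresh-frozen TE, 41.0, 62.1 and 208 in fresh-frozen HCl, 0, 6.79 and 29.8 in formalin-fixed frozen and 0, 53.0 and 237 in paraffin sections, the third from 15 UMIs in all. Its log2 fold change with fixation was -3.03 ± 0.32 (adjusted p = 1.19e-13), -2.64 relative to all genes, and that of paraffin over formalin-fixed frozen sections was 2.97 ± 0.39 (adjusted p = 1.67e-11). Cacna1d also fell with fixation, with -2.46 ± 0.28 (adjusted p = 2.03e-12). Cacng2 was higher in paraffin sections, with medians of 169 CPM in formalin-fixed frozen and 363 in paraffin sections (log2 1.14 ± 0.17, adjusted p = 2.83e-09), and it was also higher with HCl than with TE (log2 0.62 ± 0.10, adjusted p = 4.01e-06).

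Of the 10 sodium channel alpha genes, 6 were tested, and all 6 were called lower after fixation, against 32.9% of all genes. For Scn2a and Scn8a the amounts lay close to the shift of all genes. Scn3a had a log2 fold change of -1.54 ± 0.15 (adjusted p = 1.33e-15), Scn1a -0.90 ± 0.17 (adjusted p = 5.09e-06), Scn2a -0.46 ± 0.10 (adjusted p = 0.000147) and Scn8a -0.25 ± 0.11 (adjusted p = 0.0441). Relative to all genes these were -1.15, -0.51, -0.07 and 0.14, so that of Scn8a changed sign. The call of Scn8a after fixation was kept in 2 of 4 omissions of a replicate number (-0.19, adjusted p = 0.188 without replicate 1). The other 2 were the sparse Scn7a and Scn9a, with 1 UMI each in formalin-fixed frozen sections. Their log2 fold changes were -2.87 ± 0.88 (adjusted p = 0.00469) and -2.82 ± 0.87 (adjusted p = 0.00480). In paraffin sections Scn2a had -1.15 ± 0.16 (adjusted p = 7.96e-11), and Scn8a had -0.69 ± 0.15 (adjusted p = 5.20e-05). Of the beta genes, Scn2b was lower with HCl than with TE (log2 -1.24 ± 0.17, adjusted p = 8.78e-08). Scn2b was also lower after fixation (log2 -1.18 ± 0.21, adjusted p = 8.86e-07) and in paraffin (log2 -0.90 ± 0.32, adjusted p = 0.0234). The paraffin call of Scn2b was kept in 2 of 4 omissions of a replicate number (-0.57, adjusted p = 0.314 without replicate 2). Genes called higher after fixation were Cacnb3 (log2 0.48 ± 0.18, adjusted p = 0.0202), Cacng3 (log2 0.77 ± 0.20, adjusted p = 0.000669), Cacng6 (log2 1.97 ± 0.69, adjusted p = 0.0133) and Scn4b (log2 1.0 ± 0.42, adjusted p = 0.0403). When 1 replicate number was left out, the call of Cacnb3 was kept in 1 of 4 omissions, that of Scn4b in 2 of 4 (0.72, adjusted p = 0.271 without replicate 3) and that of Cacng6, from 8 UMIs in each condition, in 2 of 4 (1.02, adjusted p = 0.358 without replicate 3).

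Among the calcium channel alpha1 genes, Cacna1a and Cacna1b were higher with HCl than with TE. The log2 fold change was 0.47 ± 0.09 (adjusted p = 4.45e-05) for Cacna1a and 0.89 ± 0.10 (adjusted p = 9.28e-10) for Cacna1b. Cacna1a was lower after fixation (log2 -1.05 ± 0.11, adjusted p = 1.05e-13) and higher in paraffin than in formalin-fixed frozen sections (log2 0.80 ± 0.15, adjusted p = 3.32e-06), with medians of 830.1, 510.2, 259.7 and 507 CPM in fresh-frozen HCl, fresh-frozen TE, formalin-fixed frozen and paraffin sections. Cacna1c and Cacna1i were lower after fixation, with log2 fold changes of -0.70 ± 0.19 (adjusted p = 0.00145) and -1.20 ± 0.30 (adjusted p = 0.000585), and Cacna1e had -0.05 ± 0.15 (adjusted p = 0.815).

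**Figure D5:**
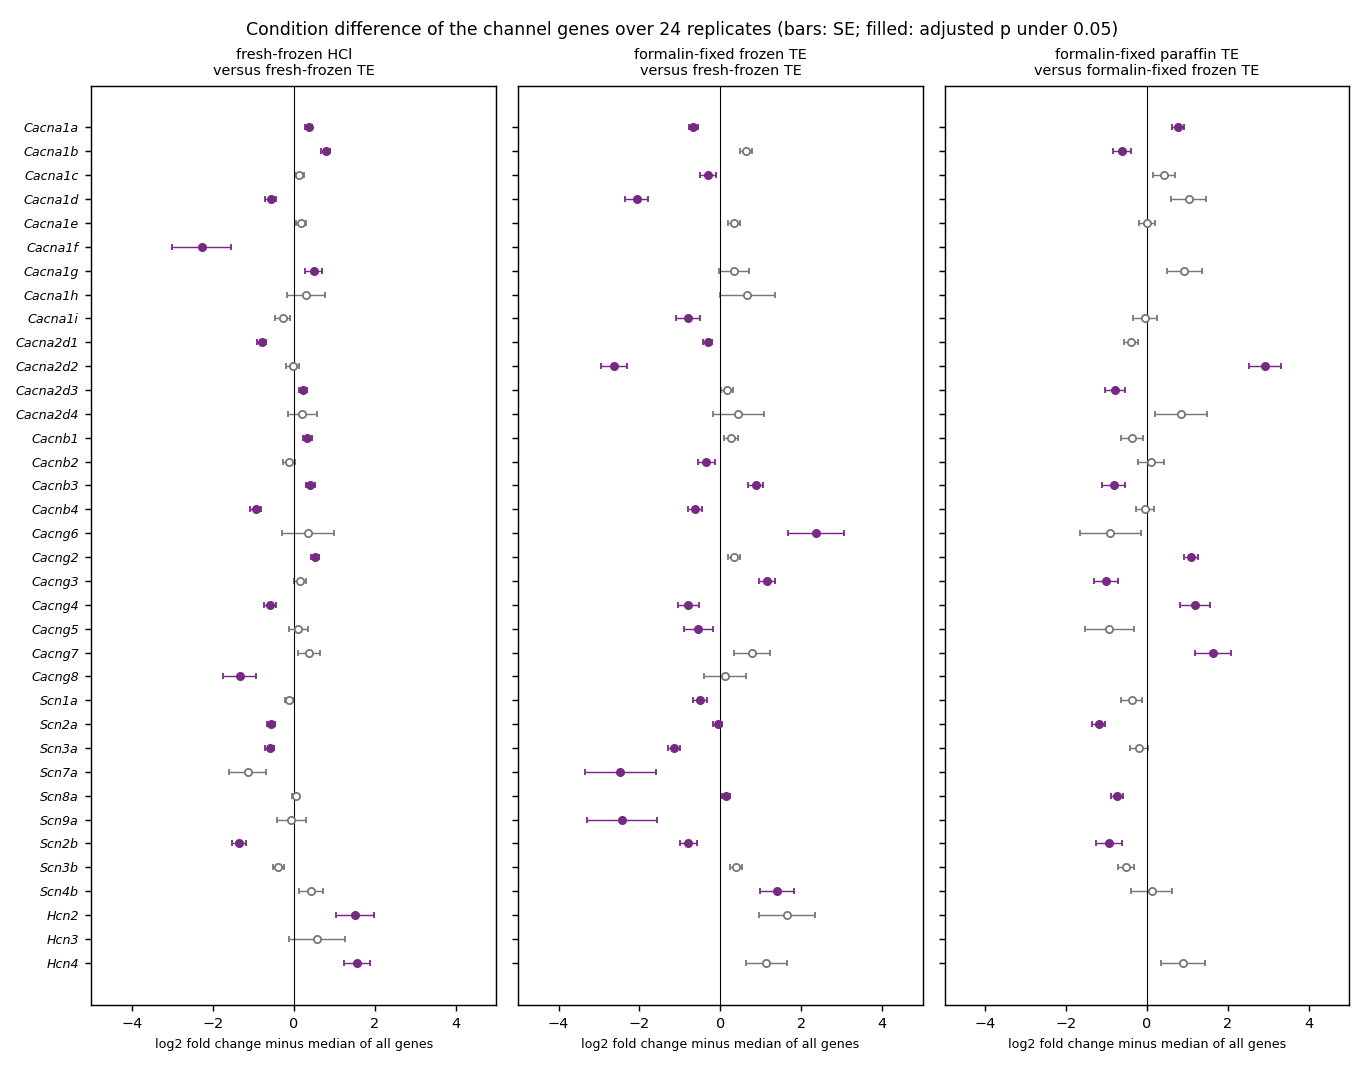
Log2 fold change between conditions minus the median of all genes (x axis) of the channel genes (rows) over 24 replicates, with bars for the standard error and filled points for an adjusted p under 0.05 of the unshifted value. Cacna2d2 lies at -2.64 for fixation and at 2.92 for paraffin.

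Whether a region difference itself differed between conditions was tested with an interaction term against fresh-frozen TE, in 9 fits that share the fresh-frozen TE replicates. Between CA1 and DG, 0 channel genes were called with fresh-frozen HCl (1.41% of all genes), 0 with formalin-fixed frozen (0.35%) and 1 with paraffin sections (0.947%). Between CA3 and DG, 0 were called in the 3 fits (0.102%, 0.341% and 0.405% of all genes). Between CA1 and CA3, 1 was called with fresh-frozen HCl (0.516%), 0 with formalin-fixed frozen (0.335%) and 1 with paraffin sections (0.433%). In the 6 fits with 0 calls by edgeR, DESeq2 called 0 too. Genes with an unadjusted p under 0.05 by edgeR in these fits follow in the order above, with all genes in brackets. For CA1 and DG they were 9 of 36 channel genes (2063 of 16533) and 2 of 35 (1120 of 14566). For CA3 and DG they were 1 of 36 (890 of 16729), 1 of 36 (1391 of 14943) and 7 of 36 (1332 of 15075). For CA1 and CA3 the count was 1 of 36 (1228 of 14904). Over the 9 fits DESeq2 made 2 calls and edgeR 3. Among the calls of edgeR was that of Cacng4 between CA1 and DG in paraffin sections (log2 -3.54 ± 0.82, adjusted p = 0.00513), from 2 UMIs in paraffin CA1, and DESeq2 did not make it. For Scn3a the interaction of CA1 and DG was -0.50 ± 0.26 (adjusted p = 0.416) in fresh-frozen HCl, which did not pass.

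A list of 32 genes whose products bind these channels or the receptors that TARPs serve was followed beside them, and 31 were tested over the libraries. Between CA1 and DG 2 were called higher and 6 lower in CA1 (4.64% and 5.52% of all genes). Between CA3 and DG 5 were called higher and 3 lower in CA3 (3.88% and 4.3%). Between CA1 and CA3 2 were called higher and 7 lower in CA1 (2.05% and 2.61%). The medians of the list were 0.26, 0.13 and -0.06, in this order. Pex5l, which encodes TRIP8b, the auxiliary subunit of HCN channels, was higher in CA1 than in DG (log2 1.75 ± 0.18, adjusted p = 7.30e-21) and than in CA3 (log2 1.94 ± 0.18, adjusted p = 4.34e-24), and did not differ beyond the test between CA3 and DG (log2 -0.19 ± 0.18, adjusted p = 0.693). The remaining call in CA1 over DG was Shisa7, an AMPA and GABA receptor partner, and that in CA1 over CA3 was Stac, an L type channel adaptor. Stac had no UMI in CA3 in any condition and none in CA1 of the fixed tissue. Its call (log2 4.42 ± 1.44, adjusted p = 0.0474) therefore rests on CA1 of the fresh-frozen sections. Cnih3, Gsg1l and Shisa9, auxiliary subunits of AMPA receptors, were lower in CA1 and in CA3 than in DG; Cnih3 had -2.26 ± 0.25 (adjusted p = 1.49e-17) and -2.08 ± 0.24 (adjusted p = 7.01e-16). Genes higher in CA3 than in both other regions were Cachd1, an alpha2delta-like protein (log2 1.49 ± 0.22, adjusted p = 7.50e-10 against DG), Rem2, a small GTPase that inhibits calcium channels (log2 2.24 ± 0.33, adjusted p = 2.03e-09), Stac2 (log2 1.87 ± 0.33, adjusted p = 1.42e-06) and Cabp1, a calcium-binding modulator of calcium channels (log2 1.25 ± 0.24, adjusted p = 1.38e-05). Fgf13, which binds sodium channel alpha subunits, was lower in CA1 than in DG (log2 -0.55 ± 0.18, adjusted p = 0.0217) and than in CA3 (log2 -0.84 ± 0.18, adjusted p = 0.000103), and Nrn1 and Olfm1, found in AMPA receptor complexes, were lower in CA1 than in both too. Shisa6 was higher in CA3 than in DG.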

How the data were processed

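PIC cDNA was made into CEL-seq2 libraries with unique molecular identifiers (UMIs) of 6 bases, which allow 4096 distinct tags, so counting error alone does not describe genes near that number; the largest channel count was 1087. The authors deposited UMI counts per gene, not normalized. The submitters' processing notes name UMI-tools 1.0.0, HISAT2 2.1.0, featureCounts 1.6.4, DESeq2 1.20.0 and GRCm38; the counting command of the study sets no strand option, and exons of 11 channel genes overlap a gene on the other strand, whose reads cannot be told apart without strand. Gene positions are those of GENCODE on GRCm38, in which 44 of 44 genes matched.

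Counts were tested with edgeR 4.0.16 (quasi-likelihood, TMM factors, genes with at least 10 UMIs over the samples of a fit, Benjamini-Hochberg over all genes) in R 4.3.3. Fits used 8 replicates for a region pair within a condition, the 12 library sums with condition as covariate, 24 replicates with region as covariate for a pair of conditions, and 16 replicates for an interaction. Family shares were compared with two-sided permutation tests over replicates in Python 3.11.15 (numpy 2.4.6, scipy 1.17.1). The fits were tested on simulated data. Alternatives were DESeq2 1.42.0, its size factors, no count filter, counts thinned to the smallest total, the 48 replicates as units, a replicate block, and the omission of single replicates or conditions.

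The replicate number was checked as a pairing: same-numbered replicates deviated together in fresh-frozen TE (correlations of 0.18 to 0.338 in 3 region pairs) and between CA3 and DG in fresh-frozen HCl (0.228 to 0.433), which comes from the data and not from the labels. In the other comparisons the correlations were 0.001 to 0.286. The p-values of tests over replicates otherwise measure the spread between the replicates of a library, which the study calls biological. Those of the fits on library sums measure the spread between libraries that condition and region leave unexplained. The totals per replicate limit what could be detected.

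Values in every replicate are given for the HCN genes and for each channel gene called over the 12 libraries or called with 1 direction in at least 2 conditions of a region pair, 15 genes as given here, and the other genes by ranges and counts. Genes named to complete a count were chosen after their values were seen. The genes, the lists of markers and partners, and the tests were chosen with earlier results of these data known. The results of 3 channel genes are not reported here, although these genes stay in the fits, the counts and the share families.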

Additional observations from a re-analysis of the deposited data

Results flagged for a closer look

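Among 99 groups of 4 replicates with at least 40 UMIs of a channel gene, 5 held a replicate whose gap to the nearest other, as a share of the range of the group, exceeded the critical value of Dixon's test at the 95% level; chance gives about 1 in 20 such groups. Cacna1a in DG of fresh-frozen TE was 403.8 CPM in replicate 2, against 506 to 518.4 in the others. Cacna1c in CA3 of fresh-frozen TE was 82.07 CPM in replicate 4, against 116.9 to 123.8. Cacna1c in DG of paraffin sections was 121 CPM in replicate 3, against 71.13 to 77.8. Cacng2 in DG of fresh-frozen TE was 197 CPM in replicate 4, against 136.2 to 142.6. Scn3b in DG of fresh-frozen HCl was 110.7 CPM in replicate 1, against 154.9 to 162.5.

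A region difference that itself differed between conditions by an interaction term (edgeR, adjusted p below 0.05) was found for Cacng4. For this gene the difference between CA1 and DG changed by -3.542 on the log2 scale from fresh-frozen TE to paraffin sections (SE 0.82, adjusted p = 0.00513). The value rests on 2 UMIs in paraffin CA1, and DESeq2 did not make the call.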

How the results depend on the processing

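Summed over the 4 conditions, the calls of channel genes were 29 between CA1 and DG, 22 between CA3 and DG and 16 between CA1 and CA3. DESeq2 made 18 calls between CA1 and DG. Thinned to 35932 UMIs per replicate, the counts gave 6, 2 and 3 calls, from fewer UMIs by construction. Over the libraries, taking the 48 replicates as units gave 16 calls in place of 10 between CA1 and DG and 12 in place of 6 between CA3 and DG. Leaving out 1 condition gave 6 to 12 calls between CA1 and DG (6 without fresh-frozen HCl and 6 without fresh-frozen TE), 4 to 8 between CA3 and DG and 5 to 8 between CA1 and CA3 (5 without fresh-frozen TE). The comparisons of family shares that passed numbered 19 to 40, with 19 without fresh-frozen TE and 32 over all conditions. Leaving out 1 replicate gave 25 to 31, 19 to 23 and 13 to 18 calls summed over the conditions, in the order above. These counts, and those with the block below, are given without the share of all genes called under the same setting. They therefore do not compare the channel genes with other genes. The cause of the changes in these counts was not tested. No called region difference of the genes given in every replicate changed sign with DESeq2, its size factors or the omission of a replicate or condition, whereas the call of Scn8a after fixation changed sign relative to the median of all genes.

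With the replicate number as a block, the summed calls were 38 between CA1 and DG, 31 between CA3 and DG and 23 between CA1 and CA3. Outside the comparisons where the block is given beside the result, same-numbered replicates correlated at 0.001 to 0.286. The mean for other numbers there was -0.057 to -0.015. Of 4 replicates, 0 to 4 correlated best with their own number, with 4 of 4 for CA1 and DG in paraffin sections. The fits given beside the results of these comparisons leave the number out. Between conditions the block gave 22 calls for fresh-frozen HCl and TE, 22 for fixation and 13 for paraffin sections, in place of 20, 22 and 13. Over the 9 alternatives run for each, these counts ranged from 15 to 22, from 18 to 22 and from 9 to 14. Of 19 values of the genes given in every replicate that were called over the libraries, 18 kept their call in DESeq2 and 1 (Scn9a between CA1 and DG) did not; of 40 within conditions, 32 did. The 8 lost were Scn3a, Cacna1c, Cacna1i and Cacng3 between CA1 and DG and Scn3b between CA1 and CA3 in formalin-fixed frozen sections, Scn3a between each CA region and DG in paraffin sections, and Cacng3 between CA1 and DG in fresh-frozen TE.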
